A study of Mus musculus with 2 samples.

Results

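Macrophages that sit in fat take up fatty acids released by adipocytes, and they keep part of this lipid as triglyceride in lipid droplets. Described here are 10 genes of the lipid droplet, of 20330 Ensembl gene identifiers in the deposited table: the coat proteins Plin2 and Plin3, the triglyceride breakdown genes Pnpla2, Lipe, Mgll and Abhd5, the lipase inhibitors Hilpda and G0s2, and the triglyceride synthesis genes Dgat1 and Dgat2. The genes were selected by their role at the droplet, and chosen with the values of this same WT and KO comparison already known, so what follows is a description and carries no test. All 10 symbols were found.

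The libraries were made from adipose-tissue macrophages (ATM) of C57BL/6 mice, sorted by flow cytometry from visceral fat on F4/80 and CD11b after 12 weeks of high-fat diet (HFD). The WT group was hMRP8cre-;Hif-1αfl/fl;ApoE-/- and the KO group was hMRP8cre+;Hif-1αfl/fl;ApoE-/-, so both groups were labelled as ApoE null, both carried the floxed Hif-1α alleles, and the labels give the Cre transgene as what sets them apart. Cre was driven by the human MRP8 (S100A8) promoter, which is active in the myeloid lineage, from progenitors to monocytes and neutrophils, and is not restricted to macrophages. The labels give no age, but per the methods of the study the diet was begun in mice of 4 weeks. There was 1 library for each genotype, and whether a library held 1 animal or a pool is not given in the sources used here. No difference below has a replicate check, and every statement is about these 2 libraries.

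Neutral fat is built and stored, and then broken down, by a short chain of enzymes. DGAT1 and DGAT2 add the last fatty acid to diacylglycerol to make triglyceride. Perilipins coat the droplet surface. Adipose triglyceride lipase (ATGL, gene Pnpla2) removes the first fatty acid, hormone-sensitive lipase (HSL, gene Lipe) the next and monoacylglycerol lipase (gene Mgll) the last. ABHD5, also called CGI-58, is the coactivator of ATGL, whereas G0S2 and HILPDA bind ATGL and inhibit it. Hilpda, hypoxia inducible lipid droplet associated, is a known target of HIF-1 and of the fatty acid receptors of the PPAR family.

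Both libraries had the RNA of macrophages. The unit is FPKM, fragments per kilobase of transcript scaled to all mapped fragments of the library. It was above 0 in both libraries for 12 of 12 macrophage markers in the table, which summed to 8653 in WT and 9127 in KO, and none differed by 3-fold. Hif1a, the targeted gene, had 30.4 FPKM in the WT library and 20.97 in the KO library for the gene as a whole. The floxed exon was not analysed here, so this value does not check the deletion. Apoe, labelled as null in both groups, had 94.3 FPKM (WT) and 116.5 (KO) for the gene as a whole, so these values do not show its loss, and the altered part of the gene was not analysed here. Depth, taken from the smallest recurring step of the low values, came to about 5858000 fragments (WT) and 7466000 fragments (KO). The fragments given below for single genes are estimates from this depth and the median annotated transcript length, and they bear on counting error only.

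The plot of levels by library shows the FPKM of each lipid droplet gene. FPKM is already per transcript length, so levels can be compared between genes. Plin2 was by far the highest of the 10, and it made up 69.5% of their summed FPKM in WT and 83.1% in KO. The sum itself was 968 FPKM in WT and 851 in KO. Without Plin2, Hilpda made up 50.4% of the rest in WT and 5.07% in KO, while Pnpla2 made up 28.6% and 51.6%.

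**Figure D1:**
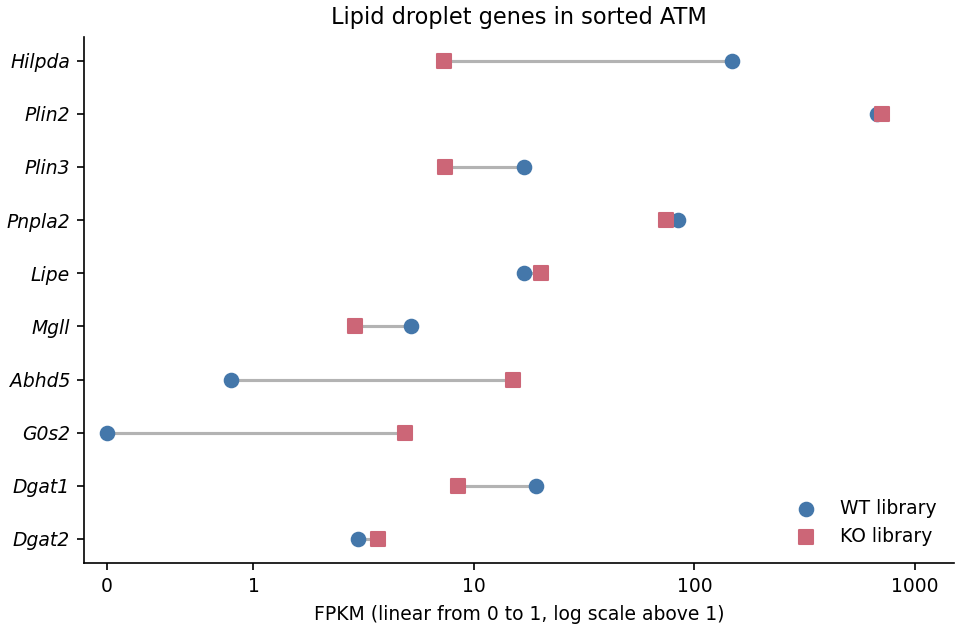
FPKM of the 10 lipid droplet genes in the WT library (circles) and the KO library (squares), on an axis that is linear from 0 to 1 and logarithmic above 1. Each point is 1 library without a replicate, and the long bars belong to Hilpda (148.7 and 7.30 FPKM), Abhd5 (0.848 and 14.97 FPKM) and G0s2 (listed at 0 for WT, 4.88 FPKM for KO).

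The terms higher and lower in KO are kept for genes whose FPKM + 1 differed by 3-fold or more, 1.58 on the log2 scale. All 10 genes reached 1 FPKM in one library or both and were compared. Of these, 2 were higher in KO (Abhd5 and G0s2), 1 was lower (Hilpda) and 7 were within 3-fold. Over the 10297 genes compared, 13.6% were higher and 13.7% were lower, 27.3% in all, so the count of 3 among 10 was close to the share in the whole table. The median difference of the 10 genes was -0.06 on the log2(FPKM + 1) scale against 0.03 over all genes compared, with 5 genes above 0 and 5 below. Over the alternatives this median lay between -0.43, when both libraries had to reach 1 FPKM and Abhd5 and G0s2 were left out, and 0.01, when the upper quartiles were made equal.

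How often a pair of unreplicated libraries differed by 3-fold depended on the level. The share was 54.1% where the mean level was 1 to 5 FPKM, 26.6% at 5 to 20, 9.8% at 20 to 100 and 2.14% at 100 and over. Hilpda and Pnpla2 lay in the class of 20 to 100 FPKM and Plin2 in the highest class. Plin3, Lipe, Abhd5 and Dgat1 lay at 5 to 20 FPKM, and Mgll, G0s2 and Dgat2 at 1 to 5. These shares are the background for each value given below.

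**Figure D2:**
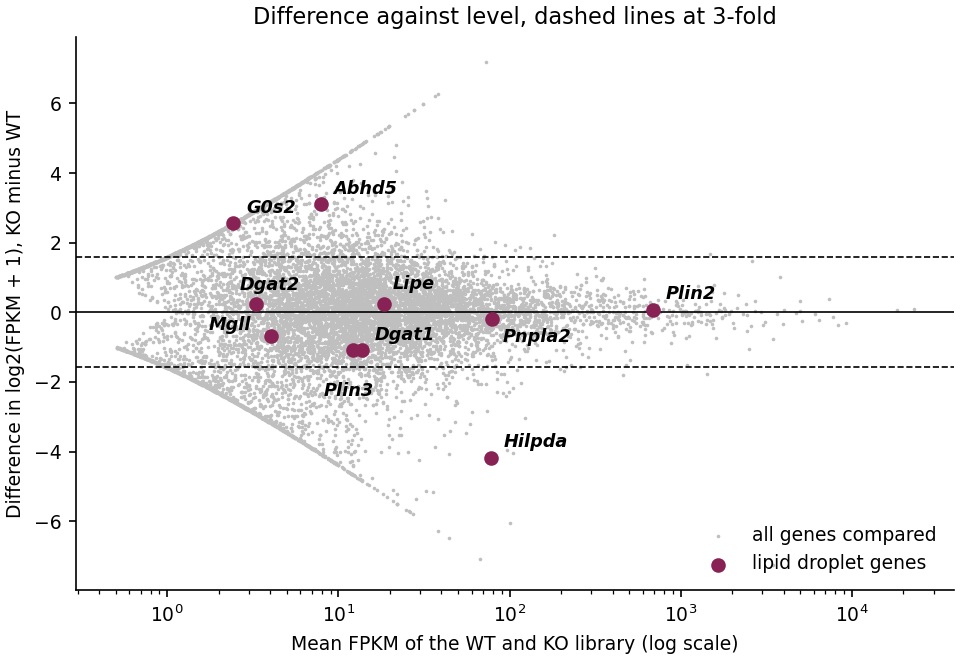
Difference in log2(FPKM + 1), KO minus WT, against the mean FPKM of both libraries on a log axis, for all 10297 genes compared (grey) and the 10 lipid droplet genes (labelled), with dashed lines at 3-fold. The grey cloud narrows with level, from 54.1% past 3-fold at 1 to 5 FPKM to 2.14% at 100 and over, and Hilpda, at a mean of 78.0 FPKM, lies where 1.22% of genes differ by as much.

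Hilpda (ENSMUSG00000043421, GRCm38 chromosome 6, 29272488 to 29275446, plus strand) encodes the small droplet protein that inhibits ATGL. The WT library had 148.7 FPKM of Hilpda and the KO library 7.30 FPKM, 20.4 times less. It was the 532nd highest of all genes in the WT library and the 5778th in the KO library. The difference was -4.17 on the log2(FPKM + 1) scale. Of the 10297 genes compared, 75 had a difference this low or lower, itself included, and 58 of these were listed at 0 in KO. Among the 2378 genes at a mean of 20 to 100 FPKM, 29, or 1.22%, differed by as much in either direction. With the annotated median length of 0.82 kb, about 714 fragments stand behind the WT value and 44.7 behind the KO value. In sorted bulk RNA, fewer cells that express a gene and less of its RNA per cell cannot be told apart.

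The proximal promoter of Hilpda is shown because the design removes HIF-1α, and HIF-1 binds short sites with the core ACGTG or GCGTG. The sequences are from RefSeq on GRCm38.p6, from 250 bases before the annotated start to 50 after it, on the strand of the gene, with each core on either strand in capitals. The study's values were made on mm9, and they hold no measurement of promoter binding. Of the 10 genes, 8 had promoters in this table, 11 in all. Dgat1 and Dgat2 were not among them. Hilpda had a pair of annotated starts 138 bases apart. The downstream promoter (chr6:29272376-29272675) held 3 cores, with first bases at -111, -43 and -8 from the start. The upstream one held 1 of these cores. The promoter of Plin2 (chr4:86670010-86670309, minus strand) and that of Pnpla2 (chr7:141454938-141455237, plus strand) are set beside it, because neither gene differed by 3-fold.
Hilpda: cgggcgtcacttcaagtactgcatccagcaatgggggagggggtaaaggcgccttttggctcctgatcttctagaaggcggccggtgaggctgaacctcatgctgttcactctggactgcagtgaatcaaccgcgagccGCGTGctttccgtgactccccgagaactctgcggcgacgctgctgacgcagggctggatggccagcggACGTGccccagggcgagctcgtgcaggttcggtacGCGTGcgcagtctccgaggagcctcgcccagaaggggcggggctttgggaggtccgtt
Plin2: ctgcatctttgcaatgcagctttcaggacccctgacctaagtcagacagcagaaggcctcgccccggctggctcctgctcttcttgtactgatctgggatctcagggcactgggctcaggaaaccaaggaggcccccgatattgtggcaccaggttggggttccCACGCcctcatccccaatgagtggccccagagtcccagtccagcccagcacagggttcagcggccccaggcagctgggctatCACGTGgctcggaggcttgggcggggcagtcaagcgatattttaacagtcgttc
Pnpla2: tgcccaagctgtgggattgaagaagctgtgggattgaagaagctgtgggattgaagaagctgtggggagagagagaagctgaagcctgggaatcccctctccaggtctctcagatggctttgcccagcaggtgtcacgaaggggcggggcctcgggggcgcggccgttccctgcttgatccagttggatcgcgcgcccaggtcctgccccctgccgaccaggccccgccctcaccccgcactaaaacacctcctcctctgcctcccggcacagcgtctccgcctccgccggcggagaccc

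The Plin2 promoter also held 3 cores, at -86, -4 and -3, of which the last 2 overlap, since CACGTG reads as ACGTG on both strands. The Pnpla2 promoter held none. At least 1 core was present in 8 of the 11 promoters, which belong to 6 of the 8 genes, and in 43.8% of the 32851 promoters of the table. At least 3 were present in 8.93% of them. Abhd5 and G0s2 each held 1 core, a GCGTG at -18 and at -142. Mgll, which had 4 cores at its upstream start and 7 at its downstream start, had 5.19 FPKM in the WT library and 2.88 in the KO library. Lipe held 3 cores at one start and none at the other, and Plin3 held none. A match to 5 letters is a description of the sequence and does not show a bound site.

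The coat genes stood far apart in level. Plin2 (ENSMUSG00000028494, chromosome 4, 86648386 to 86670060) encodes perilipin 2, which covers the droplets of most cells other than adipocytes. Its level was 673 FPKM without Cre and 707 with Cre, a difference of 0.07 on the log2(FPKM + 1) scale, and it was the 141st and the 125th highest gene. Plin2, like Hilpda a known PPAR target, was thus nearly level between the libraries. Plin3 (ENSMUSG00000024197, chromosome 17, 56277476 to 56292873), a coat protein that moves from the cytosol onto new droplets, had 16.8 FPKM in the WT library against 7.41 in the KO library. This difference of -1.09 was within 3-fold, and 40.8% of genes at 5 to 20 FPKM differed by as much.

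The lipases were on both sides of 0 and all within 3-fold. Pnpla2 (ENSMUSG00000025509, chromosome 7, 141455198 to 141460743), which encodes ATGL, was the highest of them, with 84.4 FPKM for WT against 74.3 for KO, a difference of -0.18. Lipe (ENSMUSG00000003123, chromosome 7, 25379527 to 25398710), which encodes HSL, had 16.8 FPKM for WT and 20.1 for KO, a difference of 0.24. Mgll (ENSMUSG00000033174, chromosome 6, 88724412 to 88828360) differed by -0.67, and 77.6% of genes at 1 to 5 FPKM differed by as much. The order Pnpla2 above Lipe above Mgll was the same in both libraries. Lipe shares 15.6% of its annotated exon bases with an antisense gene and Mgll 3.29%, and a read from either strand cannot be assigned where the library does not keep strand.

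The coactivator of ATGL and its other inhibitor were both higher in KO. Abhd5 (ENSMUSG00000032540, chromosome 9, 122351608 to 122381524) reached only 0.848 FPKM in the WT library, on about 12.8 fragments, and 14.97 FPKM in the KO library, on about 288. The difference was 3.11 on the log2(FPKM + 1) scale. Among genes at 5 to 20 FPKM, 11.1% differed by as much. An antisense gene overlaps 15.9% of the annotated exon bases of Abhd5. G0s2 (ENSMUSG00000009633, chromosome 1, 193272161 to 193273217) was listed at 0 for WT, and the KO library had 4.88 FPKM on about 31.7 fragments, so no fold is given. Among genes at 1 to 5 FPKM, 17.1% differed by as much on the log2(FPKM + 1) scale. At its length of 0.871 kb, 3 fragments would be 0.588 FPKM in the WT library. A value of 0 in this table can be a failed estimate, since 14 of 76 mitochondrial ribosomal protein genes, which all cells use, were also listed at 0 in WT and 11 in KO. Of all genes compared, 9.26% were listed at 0 in WT and 7.86% in KO. The count of genes higher in KO therefore rests on genes that were under 1 FPKM in the WT library.

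The genes of the last step of triglyceride synthesis were both within 3-fold. Dgat1 (ENSMUSG00000022555, chromosome 15, 76502015 to 76511953) had 19.2 FPKM for WT against 8.45 for KO, a difference of -1.10. Among genes at its level 40.4% differed by as much. Dgat2 (ENSMUSG00000030747, chromosome 7, 99153658 to 99182719) had 2.97 FPKM for WT and 3.66 for KO, a difference of 0.23 on about 23.0 and 36.1 fragments. Dgat1 was above Dgat2 in both libraries.

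Ratios within a library do not depend on how the libraries were scaled against each other. Hilpda stood at 1.76 times the FPKM of Pnpla2 in WT, and in KO at 0.0983 times. The inhibitor was thus above the lipase in WT and below it in KO. Abhd5 stood at 0.0101 times Pnpla2 in WT and at 0.202 times in KO. G0s2 was at 0.0657 times Pnpla2 in KO, where it had 4.88 FPKM and Hilpda had 7.30 FPKM. The ratio of Lipe to Pnpla2 was 0.199 in WT and 0.27 in KO, and that of Mgll to Pnpla2 was 0.0616 and 0.0388. Plin2 was at 39.98 times Plin3 in WT and 95.5 times in KO. Dgat1 was at 6.46 times Dgat2 in WT and 2.31 times in KO. These are ratios of RNA levels, and protein amounts or lipase activity were not measured in these files.

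**Figure D3:**
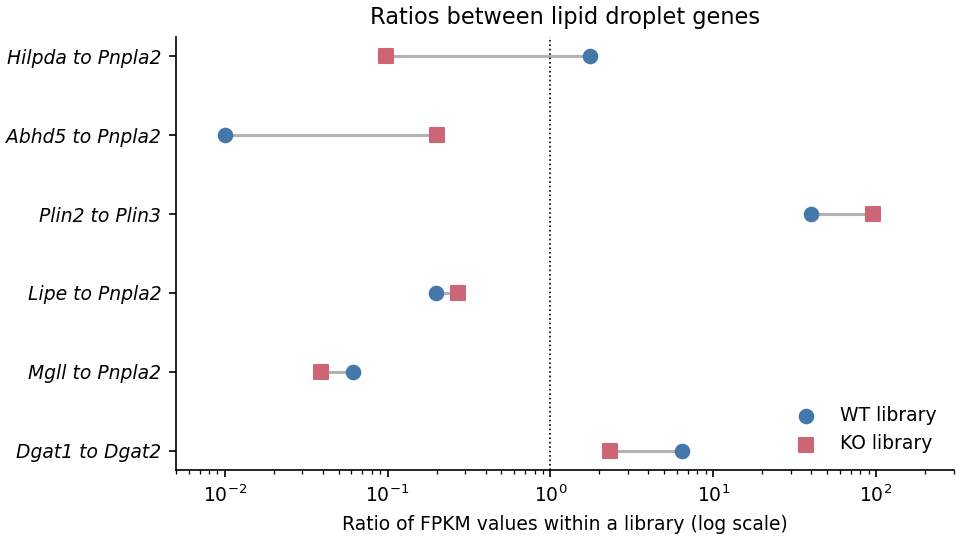
Ratio of FPKM values of gene pairs within the WT library (circles) and within the KO library (squares), on a log axis with a dotted line at 1. Hilpda to Pnpla2 crosses the line, from 1.76 to 0.0983, and Abhd5 to Pnpla2 stays under it, at 0.0101 and 0.202. G0s2 to Pnpla2 is not drawn because G0s2 was listed at 0 in WT.

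The other genes of droplets and triglyceride metabolism were taken from lists written with earlier results of these data known. Of 17 further coat and biogenesis genes, 10 were compared, 1 was higher and 2 were lower, with a median of -0.16. Cidec, a droplet fusion protein, had 5.83 FPKM for WT and was listed at 0 for KO, and Plin4 had 2.14 FPKM and was listed at 0. Spart, which encodes spartin, was listed at 0 for WT and had 4.33 FPKM for KO. Plin1, Plin5 and Cidea were listed at 0 in both libraries.

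Of 14 further lipases and hydrolases, 9 were compared, and none passed 3-fold. All 9 had differences below 0, with a median of -0.32 against 0.03 over all genes compared, but the sign of some rests on the scaling: 7 of 9 stayed below 0 with the upper quartiles made equal, 8 with equal sums and 9 with the median ratio. Lipoprotein lipase (Lpl), which frees fatty acids from plasma triglyceride, had 457 FPKM for WT against 219 for KO. The lysosomal acid lipase gene Lipa stood at 138 and 128 FPKM, and the cholesterol ester hydrolase gene Nceh1 at 36.7 and 20.8.

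Of 20 further genes of triglyceride and sterol ester synthesis in the table, 12 were compared. Of these, 2 were higher and 2 were lower, with a median of 0.31. Acsl5, an acyl-CoA synthetase, had 6.51 FPKM for WT and 31.5 for KO, and Gpam, the mitochondrial glycerol-3-phosphate acyltransferase, had 1.59 and 7.51. Agpat3, an acyltransferase for lysophosphatidic acid, had 34.9 FPKM for WT and 9.92 for KO, and Lpin2, a phosphatidic acid phosphatase, had 21.8 and 6.29. Among 9 genes of fatty acid uptake and binding compared, Slc27a4, a fatty acid transporter, was higher, from 2.09 FPKM (WT) to 12.9 (KO). The fatty acid binding protein gene Fabp5 was lower, from 130.4 FPKM (WT) to 39.04 (KO). The median of these 9 was 0.02.

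Of the genes of the signal that turns lipolysis on in adipocytes, 12 were compared, 1 was higher and 1 was lower, with a median of 0.22. Over all genes compared 27.3% were past 3-fold, and nothing particular to this list is read from its count, nor from those of the other lists here. Adrb1, the β1-adrenergic receptor, had 1.43 FPKM for WT and 7.97 for KO. Prkar2b, a regulatory subunit of protein kinase A, had 4.55 FPKM for WT and was listed at 0 for KO. Adrb3 was listed at 0 in both.

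Hilpda was set beside the other genes under the same known regulators. Of 15 PPAR target genes, which include Hilpda and Plin2, 1 was past 3-fold, which was Hilpda itself, and the median was 0.07. The share past 3-fold over all genes falls with level, from 26.6% at 5 to 20 FPKM to 2.14% at 100 and over, so a low count is common among genes at such levels. Of the 15 differences, 10 were above 0 and 5 below. Cpt1a, the gate of mitochondrial fatty acid oxidation, had 45.7 and 54.0 FPKM (WT and KO), and Angptl4, an inhibitor of lipoprotein lipase, had 46.5 and 61.6. Acadm went the other way, with 15.5 FPKM for WT and 5.31 for KO, within 3-fold of FPKM + 1. Of 25 hypoxia target genes compared, 2 were higher and 4 were lower, Hilpda among them, with a median of -0.19. This count was near the share over all genes compared, 13.6% higher and 13.7% lower. Egln1, which encodes the prolyl hydroxylase PHD2, had 18.1 FPKM for WT and 0.865 for KO. Pdk1 had 4.46 FPKM and Car9 4.36 FPKM for WT, and both were listed at 0 for KO. The higher genes were Bnip3, with 1.51 and 8.93 FPKM, and Pfkl, with 3.55 and 14.8. Of these 6 genes, Hilpda was the only one with more than 20 FPKM in either library. Pfkfb3 rose at a higher level, from 38.9 FPKM (WT) to 118.7 (KO). Its difference of 1.5836 was just under the limit of 1.5850. With the upper quartiles made equal, 3 hypoxia target genes were higher and 4 were lower.

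**Figure D4:**
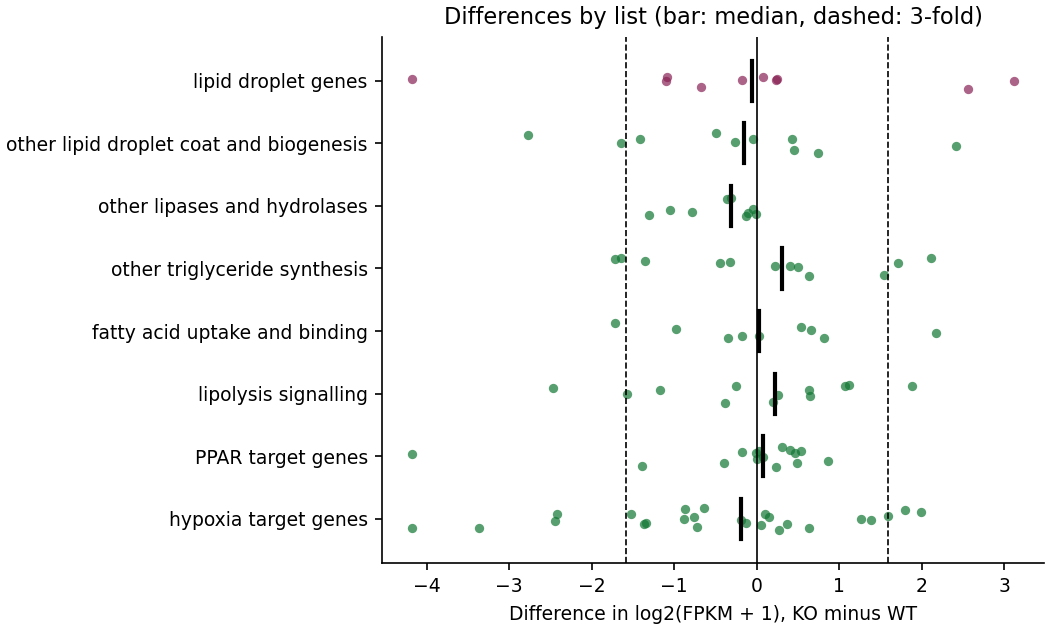
Difference in log2(FPKM + 1), KO minus WT, for each gene compared in 8 lists, with a bar at the median of the list and dashed lines at 3-fold. The medians lie between -0.32 and 0.31, and Hilpda, which belongs to 3 of the lists, is the leftmost point of each, at -4.17.

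Markers of other cells of the tissue are given beside these values, because lipid droplet genes are highly expressed in adipocytes. Of 13 adipocyte markers, 1 was above 0 in WT and 4 in KO, and 8 were listed at 0 in both libraries, among them Adipoq, Plin1, Retn and Aqp7. Their summed level was 5.83 FPKM in WT, all of it Cidec, and 22.2 in KO, of which Car3 was at 13.4 and Cfd at 7.11. Of 11 neutrophil markers 5 were above 0 in WT and 7 in KO. They summed to 158 and 523 FPKM, and 3 of the 7 compared were higher, S100a9 at 63.4 and 301, Ngp at 0 and 2.61 and Mpo at 0 and 2.29. Over all genes compared 13.6% were higher. All 7 neutrophil markers compared had differences above 0, with a median of 1.32, and S100a8 stood at 73.3 and 182, within 3-fold. Eosinophil markers summed to 6.50 and 33.1 FPKM, with Alox15 at 6.50 and 25.7 and Ccr3 at 0 and 7.45, while Siglecf, Epx and Prg2 were listed at 0 in both. Fibroblast markers summed to 162 and 191 FPKM, with 2 of 7 higher, Col1a2 at 0.0948 and 4.75 FPKM and Pdgfra at 0.0246 and 4.98. Endothelial markers summed to 18.4 and 16.1 FPKM, with 1 of 5 lower, Tie1 at 4.12 and 0. The mesothelial sum was 0 and 7.84, all of it Upk3b, with the other 6 markers listed at 0 in both. T cell markers summed to 28.9 and 31.4 FPKM, with neither of those compared past 3-fold. B cell markers summed to 5.56 and 6.89 FPKM, with Cd79b higher at 0 and 5.52, while Cd79a stood at 2.50 and 0.222 and Cd22 at 2.81 and 0.431, both within 3-fold of FPKM + 1. Dendritic cell markers summed to 125 and 140 FPKM, of which Cd209a made up 122 and 131, and Zbtb46 was higher at 0 and 9.45. The part of these cells in the values of Abhd5, G0s2 and Hilpda was not tested.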

How the data were processed

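Poly(A) RNA of FACS-sorted ATM was fragmented, copied with random hexamers and amplified by PCR, 1 library per genotype. The deposited table gives 1 FPKM value per gene and library. The authors' processing notes name CASAVA 1.8.2, TopHat2 2.0.9, Cufflinks 2.2.1 and the build mm9; the annotation and the options are not given in the sources used here. The column named mut was taken as the KO library, the only library that is not WT. Of 20749 rows, 401 were full repeats and were dropped, and 18 further rows of an identifier were summed. Symbols, lengths and coordinates are from GENCODE M21 (GRCm38), and 20035 of 20330 identifiers had a symbol. Of the listed genes, Acsl3, Cd68 and Ly6g were not analysed here.

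Differences were taken as log2(FPKM + 1), KO minus WT, for genes that reached an FPKM of 1 in one library or both. The pseudocount of 1 understates the difference of low genes. With no replicates, no test was made and no p-value is given. The members and the gene lists were chosen with earlier results of these data known. Named were the members, in each other list up to 3 genes with the largest rise and up to 3 with the largest fall past 3-fold, the 5 genes nearest to Hilpda, and some control and marker genes. Lpl, Lipa, Nceh1, Cpt1a, Angptl4, Acadm, Car9, Pfkfb3 and genes listed at 0 in both libraries were named after their values were seen. Python 3.11.15, numpy 2.4.6 and pandas 2.3.3 were used. The code for the calls was run on simulated data, which bears on the code and not on the calls in these 2 libraries. The 12 alternatives were other pseudocounts, filters, thresholds, scalings, a length correction and the largest row per identifier.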

Additional observations from a re-analysis of the deposited data

How the results depend on the processing

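Leaving out low genes removed G0s2, or both G0s2 and Abhd5, from the genes higher in KO. Where both libraries had to reach 1 FPKM, 8 members were left and 0 were higher. Where the mean had to reach 5 FPKM, 7 members were left and 1, Abhd5, was higher. At a 2-fold threshold 3 members were lower, Hilpda, Plin3 and Dgat1. The counts over the whole table went to 429 higher and 447 lower under the first of these filters, to 598 and 646 under the second, and to 2380 and 2314 at 2-fold. Over all alternatives the difference of Hilpda lay between -4.35 and -3.99, and no member changed sign. Of 115 recomputed member differences 110 moved by less than 1.5-fold. The other 5 were those of Abhd5 and G0s2, low or at 0 in WT, under smaller or no pseudocounts. Filters and thresholds cannot move the difference of a single gene, so part of the 110 was fixed in advance. Of 199 recomputed medians of the other lists, 20 moved by more, all in marker lists of other cells, and the T cell and B cell medians, -0.37 and -1.41, were above 0 under a filter (T cell) or without one (B cell). No paired analysis was possible because there is a single library of each genotype. Agreement between the libraries is poorest under 20 FPKM, where 7 of the 10 genes lie by their mean.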

Other observations

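The genes whose levels were most like those of Hilpda over the 2 libraries were found by the distance between their log2(FPKM + 1) values. The nearest was Spp1, which encodes the secreted glycoprotein osteopontin, at 103 FPKM in WT and 8.41 in KO. Next were Psmg4 at 183 and 10.9 FPKM, Pomp at 107 and 10.6, Snrpe at 199.6 and 11.2 and Tmem11 at 86.8 and 8.94. Psmg4 and Pomp encode assembly factors of the proteasome, and Snrpe encodes a core protein of the spliceosome. Likeness over 2 libraries is likeness in level and in a single difference.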
